A study of Drosophila melanogaster with 12 samples.

Results

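The Tweedle and Osiris genes are insect gene families whose products take part in building the cuticle. Every gene of the expression table whose symbol begins with Twdl, or with Osi followed by a digit, was taken as a member, whatever its level. That gave 49 genes, 26 Tweedle and 23 Osiris, of 14001 in the table. The annotation lists 26 Tweedle and 25 Osiris genes; Osi16 was not analysed here.

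RNA was sequenced from whole bodies of *Drosophila melanogaster* of a strain sensitive to avermectins and of a strain resistant to them. Avermectins are insecticides whose main target is the glutamate-gated chloride channel, and the labels call the sensitive animals wild type. Third-instar larvae, the last larval stage, and adults of both strains gave 4 groups of 3 libraries. The labels give neither sex nor exact age nor the origin of the strains, and do not say whether replicates were separate cultures, so a p-value here reflects only library-to-library spread, part or all of which may be technical.

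Insect cuticle is secreted by the epidermis and by the tracheal and other ectodermal tubes in waves that follow pulses of the steroid hormone ecdysone. Tweedle proteins are secreted cuticle proteins; a dominant mutation of TwdlD makes larvae and pupae short and stout. Osiris proteins are insect-specific proteins of the secretory and endosomal membranes of cuticle-forming cells, and most of their genes lie in the dosage-sensitive Triplo-lethal region. In whole bodies, fewer cells of a type and less RNA per cell cannot be told apart.

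Values are FPKM, fragments divided by transcript length and by library size, so levels can be set beside each other across genes. The spacing of low values put the depth of a library at 11320000 to 12460000 reads, and for the members 1 read was worth 0.031 to 0.127 FPKM. The libraries matched their stage: all 9 larval markers and all 3 fat body markers were called higher in larvae of both strains, and all 3 eye and all 3 flight muscle markers lower. The strains differed in several marker lists. In larvae 3 of 9 larval markers were called lower in the resistant strain and 1 higher, and 2 of 3 fat body markers lower. Over all genes 9.84% were lower and 48.8% higher. Lsp1alpha was at 3540 ± 821 FPKM in sensitive and 273 ± 44.6 FPKM in resistant larvae. Yp3, a yolk protein gene, was at 132 ± 24.0 and 5.84 ± 1.09 FPKM (SD, n = 3). All 3 male markers tested in larvae were called higher, none of them after median-of-ratios scaling. The adults differed as well. Of the 5 female markers, which summed to 14969.65 to 16824.61 FPKM in sensitive and 8315.69 to 10789.32 FPKM in resistant adults, the 3 yolk protein genes Yp1, Yp2 and Yp3 were called lower in resistant adults, and the eggshell genes Cp36 and Vm26Aa were not called (changes of -0.42 and 0.26, adjusted p = 0.565 and 0.694, limma). The call of Yp2 ended after median-of-ratios scaling (adjusted p = 0.0664, limma). The 5 male markers summed to 251.39 to 630.38 and 753.85 to 1251.17 FPKM, with 3 called higher. The larval markers summed to 81.98 to 99.72 FPKM in sensitive and 182.61 to 232.39 FPKM in resistant adults, with 3 of 9 called higher, and the fat body markers to 27.73 to 34.3 and 96.8 to 207.69 FPKM, with 2 of 3 called higher. Fbp2, a larval fat body gene, was at 1.63 ± 0.51 FPKM in sensitive and 80.6 ± 39.1 FPKM in resistant adults (SD, n = 3). The part of these markers in the larval and adult strain results below was not tested.

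The 47 members found in the annotation by identifier lie mostly on chromosome arm 3R (dm6), which holds 20 Tweedle and 21 Osiris genes. Of the Osiris genes, 19 sit in a cluster at 3R:6173549-6341424, and 12 Tweedle genes sit in a cluster at 3R:26619118-26641054. TwdlX, TwdlY, TwdlZ and Twdlalpha are on the X chromosome, TwdlE on 2L and Twdlbeta on 2R. Osi10 and Osi21 carry older identifiers and were given no position. TwdlU is annotated as a pseudogene.

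Both families were low. Of the 49 members, 32 reached 1 FPKM in at least 1 library, where 90.8% of all genes in the table did. TwdlX was the 1 member that averaged 10 FPKM or more in any group, while the median gene of the table was at 4.56 to 11.16 FPKM in each library. The members above 0 in a single library were TwdlK, TwdlZ, Osi10, Osi11, Osi21 and Osi23. Each was at the value of about 1 read, except Osi10, which was at 0.1 FPKM and had no read estimate. Osi23 is known from the pupal shaft cells of olfactory bristles, and Osi21 from degenerating photoreceptors.

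The summed levels are given by family, with no test between the families. The summed Tweedle level was highest in sensitive larvae, at 69.02, 70.33 and 97.09 FPKM in the 3 libraries. It was 19.68, 17.34 and 40.27 FPKM in resistant larvae, 57.85, 14.81 and 28.02 FPKM in sensitive adults, and 23.29, 27.58 and 27.50 FPKM in resistant adults. All 3 sensitive larval libraries therefore stood above the other 9, and the other 3 groups overlapped. In sensitive larvae TwdlX alone made up 67.1 to 69.6% of that sum. The summed Osiris level was 3.45, 3.94 and 3.55 FPKM in sensitive larvae and 5.69, 4.90 and 5.92 FPKM in resistant larvae. In adults it was 34.24, 20.44 and 8.22 FPKM in the sensitive strain and 24.81, 11.42 and 6.69 FPKM in the resistant strain. Every adult library thus exceeded every larval one in its Osiris sum, with a wide spread within both adult groups.

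**Figure D1:**
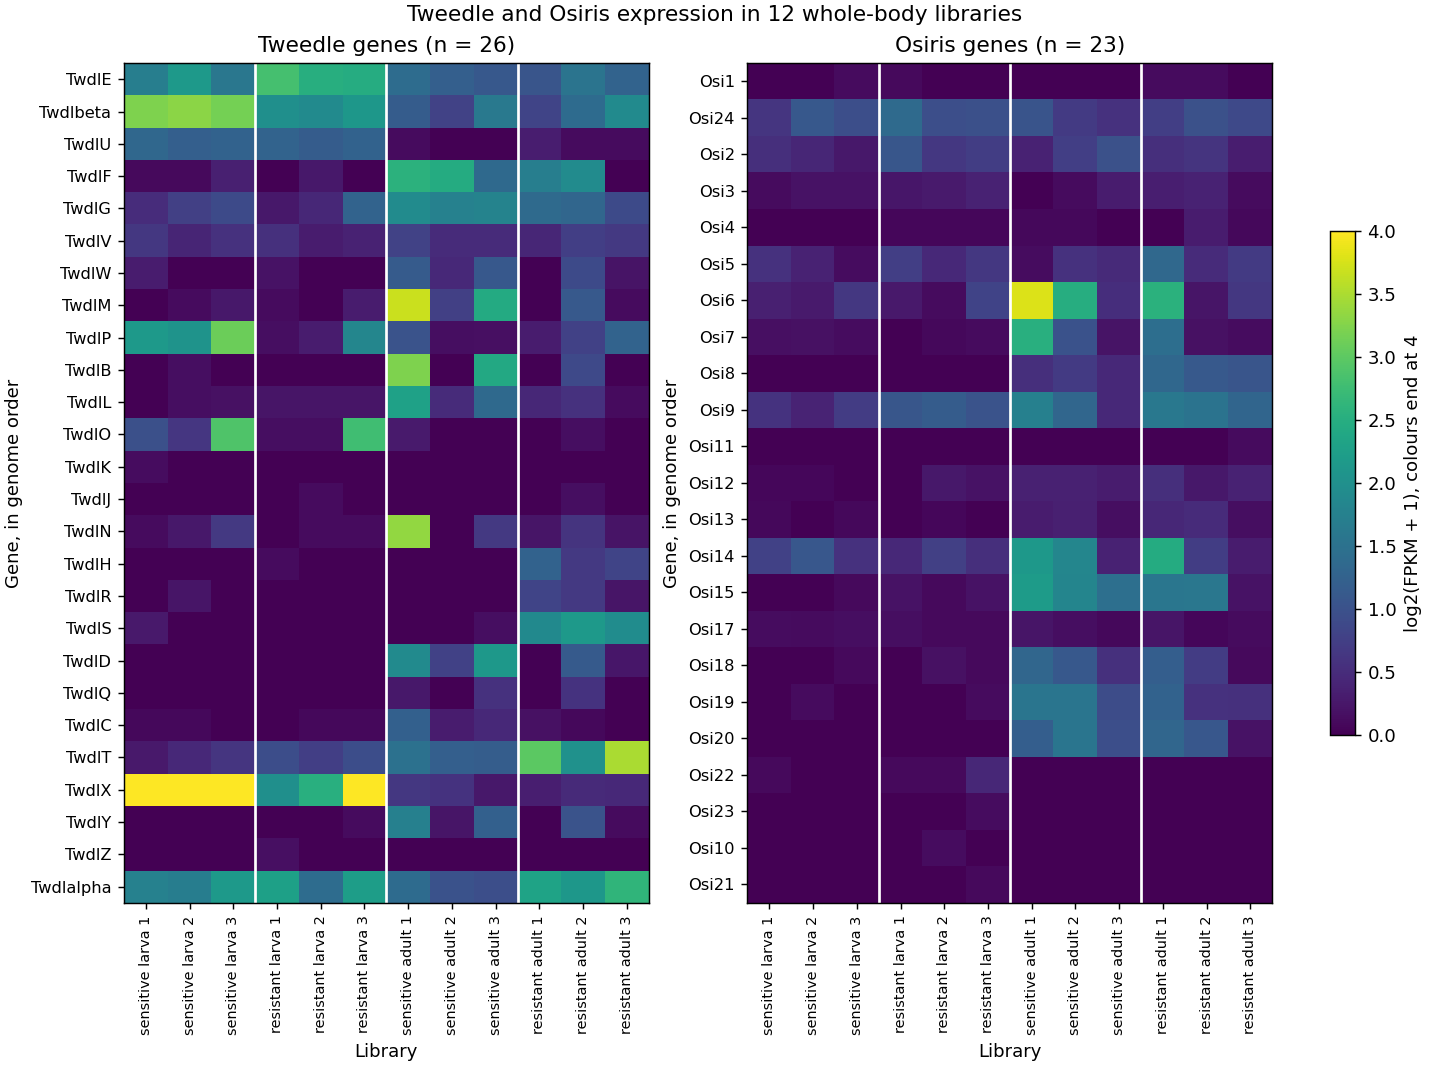
Expression of the 26 Tweedle genes (left) and 23 Osiris genes (right), in genome order, in each of the 12 libraries; colour gives log2(FPKM + 1) and ends at 4, which TwdlX exceeds. TwdlX is the brightest row in larvae, and Osi6 to Osi9, Osi14, Osi15 and Osi18 to Osi20 have their brightest cells in adult columns.

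The strain comparisons asked which members differ between resistant and sensitive animals of the same stage. Each was tested with limma on log2(FPKM + 1) over all genes at 1 FPKM or more in at least 3 of the libraries fitted, with Benjamini-Hochberg adjustment over all of them and a threshold of 0.05. Changes are resistant minus sensitive on that log2 scale, which understates the change of low genes. In larvae the median log2 change over all genes was 0.49, so members were read against that shift. After median-of-ratios scaling that median was 0.02, and strain calls that end under this scaling are named.

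In larvae the most abundant Tweedle transcript was lower in the resistant strain. TwdlX (X:16731091-16732630) was at 48.06, 48.57 and 65.12 FPKM in sensitive larvae and at 2.99, 4.76 and 15.56 FPKM in resistant larvae, about 776, 757 and 1021 reads against 49, 77 and 253. The groups did not overlap, and resistant larvae replicate 3 lay between the other resistant libraries and the sensitive ones. TwdlX fell by 2.91 on the log2 scale (SE 0.54, adjusted p = 0.00682, limma), a ratio of group means of 6.94. Without resistant larvae replicate 3 the change was -3.50 (adjusted p = 3.806e-05, limma), and the call held with any 1 of the 6 libraries left out.

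TwdlX also set most of the family's larval sum. It made up 69.6, 69.1 and 67.1% of the summed Tweedle FPKM in sensitive larvae, and 15.2, 27.5 and 38.6% in resistant larvae. In adults its share was 0.7 to 3.4%. The gene lies within goe, which is transcribed from the opposite strand, and no source used here states whether counting was by strand. The goe gene itself was called higher in resistant larvae, at 3.99 ± 0.54 FPKM in sensitive and 10.6 ± 2.13 FPKM in resistant larvae (SD, n = 3), the opposite direction to TwdlX.

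Twdlbeta, a Tweedle gene outside the clusters, fell as well. It was at 8.41, 8.84 and 7.95 FPKM in sensitive larvae and at 2.98, 2.75 and 3.33 FPKM in resistant larvae. The replicates of each group were close together and the groups were far apart. The change was -1.23 (SE 0.16, adjusted p = 0.000534, limma), a ratio of means of 2.78, and it was called with any 1 of the 6 libraries left out.

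TwdlP (3R, in the Tweedle cluster) was at 3.45, 3.17 and 7.61 FPKM in sensitive larvae and at 0.11, 0.23 and 2.58 FPKM in resistant larvae. Replicate 3 was the highest library in both strains, and the groups did not overlap. TwdlP fell by 1.68 (SE 0.53, adjusted p = 0.0336, limma), a ratio of means of 4.87. Its call held without resistant larvae replicate 3 and ended when any other larval library was left out (adjusted p 0.00142 to 0.122), and with a pseudocount of 0.1 (adjusted p = 0.0605). TwdlO, in the same cluster and chosen after its values were seen, was at 0.97, 0.55 and 6.46 FPKM in sensitive and 0.11, 0.11 and 5.87 FPKM in resistant larvae. For TwdlO, replicate 3 of each strain stood far above the other 4 libraries, at about 59 and 55 reads, and the gene did not pass the filter.

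The members called higher in resistant larvae changed less on this log2 scale, which understates the change of low genes. TwdlE was at 2.28, 3.43 and 2.0 FPKM in sensitive and 6.06, 4.71 and 4.57 FPKM in resistant larvae, with no overlap. Its log2 change was 0.79 (SE 0.20, adjusted p = 0.00788, limma), a ratio of means of 1.99, and after scaling it was 0.35 (adjusted p = 0.208). TwdlE overlaps lectin-28C on the other strand. Osi9, which is needed with Osi15 and Osi19 for maturation of the tracheal tubes, was at 0.50, 0.32 and 0.64 FPKM in sensitive and 1.10, 1.23 and 1.04 FPKM in resistant larvae. The groups did not overlap, at about 8, 5 and 10 reads against 18, 20 and 17. Osi9 was called higher by 0.52 (SE 0.17, adjusted p = 0.0231, limma), a ratio of means of 2.31. The call ended after scaling (0.28, adjusted p = 0.254, limma) and held in 1 of 3 fits with a sensitive library left out. Leaving out any resistant library takes Osi9 below the filter.

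Counted over the families, 6 of 26 Tweedle and 1 of 23 Osiris genes passed the larval filter. Of the 6, 3 were called lower and 1 higher, and the 1 Osiris gene, Osi9, was called higher. Osi9 passed the filter through the resistant libraries alone, where it is high, so its call is no support for a difference of the family. Over all 11055 larval genes, 58.7% were called, 48.8% higher and 9.84% lower, and the groups did not overlap in 54.1% (higher) and 11.1% (lower). The median change of the 6 Tweedle genes was -0.63, against 0.49 over all genes. The other tested members were Twdlalpha, with a change of 0.09 (adjusted p = 0.769), and TwdlU, with a change of -0.03 (adjusted p = 0.883, limma). TwdlU was at 1.31 to 1.52 FPKM in sensitive and 1.25 to 1.41 FPKM in resistant larvae.

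**Figure D2:**
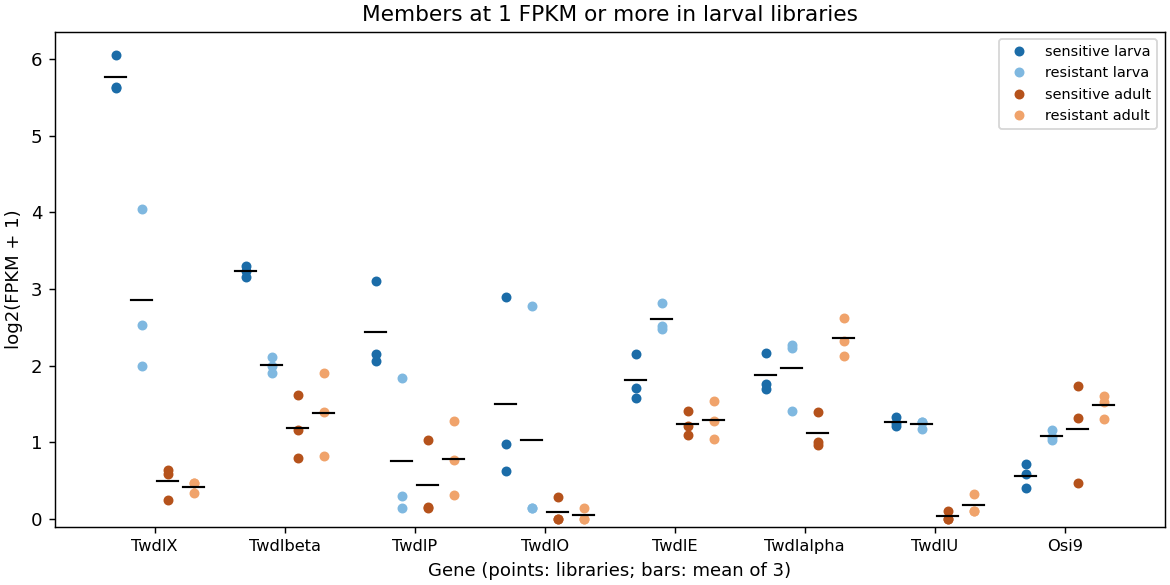
Levels of 8 members that reached 1 FPKM in some larval library, as log2(FPKM + 1) on the vertical axis. There is 1 point per library and a bar at the mean of 3 libraries for each strain and stage. TwdlG, Osi2, Osi14 and Osi24 also reached 1 FPKM in a larval library and are not shown. Sensitive larvae lie above resistant larvae for TwdlX, Twdlbeta and TwdlP, and for TwdlO 1 library of each larval strain lies above the rest.

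In adults the 4 called members, TwdlS, TwdlT, Twdlalpha and Osi8, were higher in the resistant strain. TwdlS, in the Tweedle cluster (3R:26636688-26637557), was at 0, 0 and 0.11 FPKM in sensitive and at 2.72, 3.44 and 2.86 FPKM in resistant adults. That is about 0, 0 and 1 read against 24, 31 and 26, so the groups did not overlap. Its log2 change was 1.95 (SE 0.17, adjusted p = 0.000607, limma), a size that depends on the pseudocount, and the call held after scaling. Leaving out a resistant library takes the gene below the filter, so only sensitive libraries, all near 0, could be left out. In larvae TwdlS was at 0.21 FPKM in sensitive replicate 1, about 2 reads, and at 0 in the other 5 libraries.

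The 2 genes next to TwdlS, chosen after their values were seen, had the same distribution at lower levels. TwdlH was at 0 in all 3 sensitive adults and at 1.39, 0.58 and 0.77 FPKM in resistant adults, about 14, 6 and 8 reads. TwdlR was at 0 in all 3 sensitive adults and at 0.77, 0.59 and 0.17 FPKM in resistant adults, about 9, 7 and 2 reads. Neither passed the filter. With no filter the adjusted p values were 0.00923 and 0.0296 (limma), but both genes were chosen from these same values, so the p values are no support. TwdlH, TwdlR and TwdlS are consecutive genes on the same strand between 26633732 and 26637557 on 3R, and in sum stood at 0 to 0.11 FPKM in sensitive and 3.80 to 4.88 FPKM in resistant adults. TwdlD, on the other side of TwdlS, was at 2.78, 0.71 and 3.40 FPKM in sensitive and 0, 1.2 and 0.18 FPKM in resistant adults, a difference that was not called (-1.15, adjusted p = 0.0650, limma).

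TwdlT (3R:27049220-27051004) overlaps RYa-R on its own strand. RYa-R was at 0.79 ± 0.15 FPKM in sensitive and 0.76 ± 0.23 FPKM in resistant adults (SD, n = 3). TwdlT was at 1.81, 1.31 and 1.27 FPKM in sensitive and at 6.92, 3.06 and 10.28 FPKM in resistant adults. The groups did not overlap, and the resistant libraries were far more spread out than the sensitive ones. TwdlT rose by 1.54 (SE 0.34, adjusted p = 0.0139, limma), a ratio of means of 4.62. Without resistant adults replicate 1 the adjusted p was 0.0581 (limma). In larvae TwdlT did not pass the filter and was also higher in the resistant strain without overlap. It was at 0.21, 0.38 and 0.54 FPKM in sensitive and at 0.93, 0.67 and 0.93 FPKM in resistant larvae. Twdlalpha was at 1.64, 1.0 and 0.95 FPKM in sensitive and at 4.01, 3.36 and 5.14 FPKM in resistant adults, again with no overlap. Twdlalpha rose by 1.23 (SE 0.22, adjusted p = 0.00742, limma), a ratio of means of 3.48, and was called with any 1 library left out. It overlaps goe on the opposite strand and CG32568 on its own strand; goe was not called in adults (0.16, adjusted p = 0.820), and CG32568 was called higher (0.81, adjusted p = 0.0366, limma), but not after scaling (adjusted p = 0.0699).

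The 1 Osiris gene called in adults was Osi8, which with Osi6 and Osi7 is known from tolerance to octanoic acid in a related fly, *Drosophila sechellia*. Osi8 was at 0.46, 0.60 and 0.38 FPKM in sensitive and at 1.52, 1.17 and 1.08 FPKM in resistant adults, about 6, 8 and 5 reads against 19, 15 and 14. The groups did not overlap, and all 6 larval libraries were at 0. Its change was 0.61 (SE 0.17, adjusted p = 0.0304, limma), a ratio of means of 2.62. The call ended after scaling (adjusted p = 0.0701) and in all 3 fits with a sensitive library left out (adjusted p 0.0549 to 0.115); without any resistant library Osi8 fails the filter.

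Over the families, 10 Tweedle and 9 Osiris genes passed the adult filter. Of these, 3 Tweedle genes and 1 Osiris gene were called higher, and none of either family lower (limma). At an unadjusted p under 0.05, 3 Tweedle genes and 0 Osiris genes were lower (limma). Without the filter 5 Tweedle genes and 1 Osiris gene were called, TwdlH and TwdlR among them. The share of all genes called without the filter is not given. TwdlH and TwdlR were chosen after their values were seen, so this count is no support. TwdlS and Osi8 passed the filter through the resistant libraries alone, so they had to differ. Over all 11612 adult genes 19.9% were called, 15.9% higher and 3.95% lower, and the groups did not overlap in 23.6% (higher) and 8.48% (lower). The median change was -0.29 for the 10 Tweedle genes and -0.38 for the 9 Osiris genes, against 0.02 over all genes. TwdlG was the other tested member whose groups did not overlap, at 2.82, 2.37 and 2.47 FPKM in sensitive and 1.62, 1.49 and 0.87 FPKM in resistant adults. Its change of -0.62 missed the threshold (adjusted p = 0.0513) and passed it after scaling (adjusted p = 0.0353, limma).

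**Figure D3:**
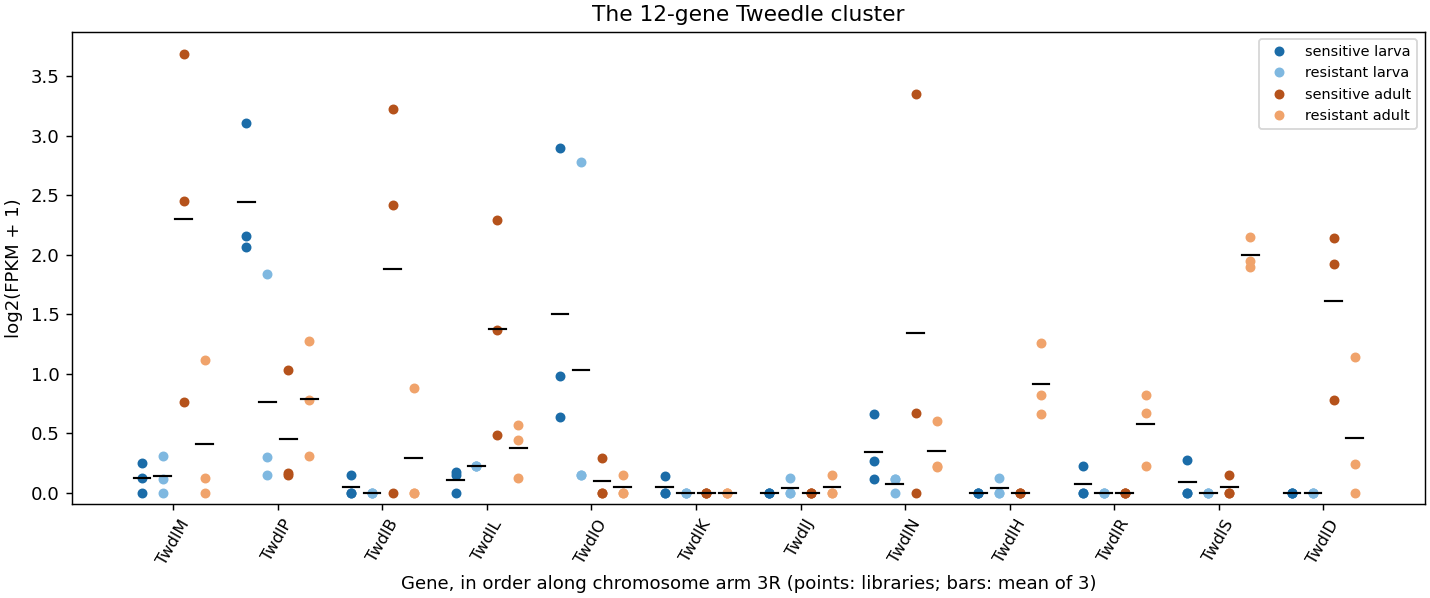
The 12 genes of the Tweedle cluster in their order along 3R, as log2(FPKM + 1) on the vertical axis, with 1 point per library and a bar at the mean of 3. TwdlP and TwdlO have their highest points in larvae, TwdlM, TwdlB, TwdlL, TwdlN and TwdlD in sensitive adults, and TwdlH, TwdlR and TwdlS in resistant adults.

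The Tweedle cluster therefore held members of unlike distribution side by side. TwdlM, TwdlB, TwdlL, TwdlN and TwdlD, and TwdlY on the X chromosome, were near 0 in larvae and varied widely between adult libraries; they were grouped after their values were seen and are given as a description. Their sum was 38.36, 1.97 and 15.71 FPKM in sensitive adults and 0.53, 5.23 and 0.61 FPKM in resistant adults. Sensitive adults replicate 1 and then replicate 3 were highest, and resistant adults replicate 2 was highest in its strain.

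Single genes followed this order in part, and TwdlD, given above, was highest in sensitive replicate 3. TwdlM was at 11.85, 0.69 and 4.47 FPKM in sensitive and at 0, 1.16 and 0.09 FPKM in resistant adults, a difference that was not called (-1.89, adjusted p = 0.101, limma). TwdlB was at 8.32, 0 and 4.35 FPKM in sensitive and at 0, 0.84 and 0 FPKM in resistant adults. TwdlN was at 9.19, 0 and 0.59 FPKM in sensitive adults, high in replicate 1 alone. Of the low read estimates of TwdlM, TwdlB and TwdlN, 3 of 7, 2 of 2 and 3 of 9 were not within 0.2 of a whole read, against 189 of 200 within it over all members with 1 transcript. RSEM 1.3.3 is among the tools listed for the data, but its role and settings are not given. How reads that match several similar genes were assigned is not stated, so the split between these genes is uncertain.

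The Osiris genes of the cluster also varied between adult libraries, in another order. Osi6, Osi7 and Osi14, grouped after their values were seen, summed to 20.96, 8.18 and 0.91 FPKM in sensitive adults and to 11.09, 0.95 and 0.90 FPKM in resistant adults. Osi6 alone was at 12.82, 4.6 and 0.44 FPKM in sensitive and 4.88, 0.17 and 0.56 FPKM in resistant adults. Replicate 1 was thus highest in each strain, and the strains overlapped (-1.13, adjusted p = 0.559, limma).

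Osi15, Osi18, Osi19 and Osi20 summed to 8.27, 7.59 and 4.06 FPKM in sensitive adults and to 6.15, 4.24 and 0.82 FPKM in resistant adults, and to at most 0.29 FPKM in any larval library. Osi15 was at 3.56, 2.55 and 1.74 FPKM in sensitive and 1.98, 2.01 and 0.14 FPKM in resistant adults, and Osi20 at 1.29, 1.95 and 0.95 and 1.5, 1.12 and 0.14 FPKM. Resistant adults replicate 3 was the lowest adult library for both genes. The same library was highest for TwdlT, and not low for TwdlS.

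**Figure D4:**
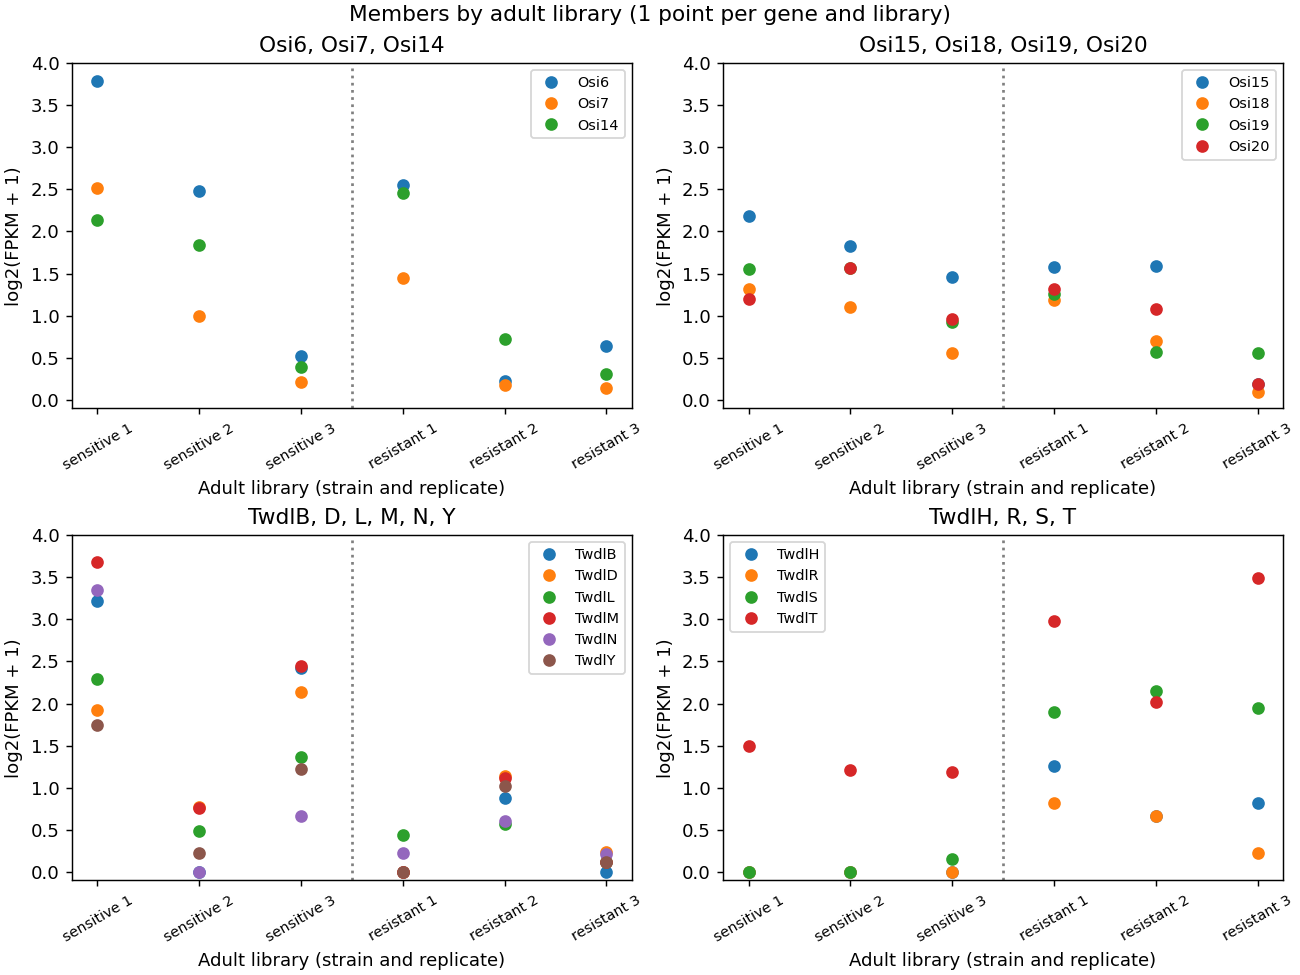
Log2(FPKM + 1) of 17 members in the 3 sensitive and 3 resistant adult libraries, in 4 panels. Osi6, Osi7 and Osi14 are highest in replicate 1 of each strain, with Osi14 in the resistant strain at 4.49 FPKM, and the TwdlB to TwdlY panel is highest in sensitive replicates 1 and 3, whereas TwdlH, TwdlR, TwdlS and TwdlT separate the strains.

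The stage comparison asked, within each strain, which members differ between larvae and adults. No Osiris gene was higher in all 6 larval than in all 6 adult libraries, and Osi8, Osi12, Osi13, Osi19 and Osi20 were higher in all 6 adult libraries, 5 of 23; of all 14001 genes, 7.5% and 22.2% had these patterns. Among Tweedle genes, TwdlE, TwdlU and TwdlX were higher in all 6 larval libraries and TwdlT in all 6 adult libraries. Osi8, Osi11 and Osi20 were at 0 in every larval library. At 1 FPKM or more in some library there were 4 Osiris genes in larvae and 11 in adults, and 8 Tweedle genes in larvae and 17 in adults. The same count over all genes is not given. Their median change, larvae minus adults, was -0.62 in the sensitive and -0.28 in the resistant strain. The larger adult counts are therefore not read as a trait of these families.

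TwdlX had the largest stage difference of the members tested. In adults it was at 0.56, 0.50 and 0.19 FPKM in the sensitive and 0.26, 0.39 and 0.38 FPKM in the resistant strain, all below every larval library. The larval level was higher by 5.27 (SE 0.19, adjusted p = 6.247e-08) in the sensitive strain, a ratio of means of 129.3, and by 2.43 (SE 0.46, adjusted p = 0.00215, limma) in the resistant strain. TwdlU was higher in larvae by 1.23 in the sensitive and by 1.05 in the resistant strain (adjusted p = 5.157e-05 and 0.000164, limma), with adult values of 0 to 0.25 FPKM. TwdlX and TwdlU passed the filter of each strain through the larval libraries alone, where they are high. They had to differ, so their stage calls are no support. TwdlE was higher in larvae by 0.57 and 1.32 (adjusted p = 0.0272 and 0.000424, limma), but in the sensitive strain it was called in 3 of 6 fits with a library left out.

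Other members were called in 1 strain. In the sensitive strain Twdlbeta, TwdlP and Twdlalpha were higher in larvae by 2.04, 1.99 and 0.76, while TwdlF, TwdlG and Osi15 were lower, with changes of -1.95, -1.11 and -1.79 (adjusted p 6.346e-05 to 0.00874, limma). TwdlF was at 0.07 to 0.28 FPKM in these larvae and at 4.94, 4.48 and 1.59 FPKM in the adults. In the test of whether the strains differ in their stage effect, which is the test of the difference given below, Twdlbeta, TwdlP and Twdlalpha were called and TwdlF, TwdlG and Osi15 were not (adjusted p = 0.322, 0.199 and 0.142, limma). TwdlT was called lower in larvae of both strains, with changes of -0.84 and -1.96 (adjusted p = 0.00169 and 0.00044, limma). In the resistant strain TwdlS and Osi8 were also called lower in larvae, with changes of -2.0 and -1.17 (adjusted p = 1.529e-06 and 6.455e-05, limma). In these fits TwdlF, TwdlG, Osi15, TwdlT, TwdlS and Osi8 passed the filter through the adult libraries alone. They too had to differ, so these stage calls are no support.

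By family, 9 Tweedle genes passed the filter in the sensitive strain, 6 called higher and 3 lower in larvae, and 2 Osiris genes passed, 1 called lower. In the resistant strain 8 Tweedle genes passed, 3 called higher and 2 lower, and 2 Osiris genes, 1 called lower. Over all genes 68.9% were called in the sensitive strain, 13.2% higher and 55.7% lower in larvae, and 52.1% in the resistant strain, 17.4% higher and 34.7% lower. Stages did not overlap in 14.2% (larvae higher) and 59.4% (lower) of genes in the sensitive and in 20.5% and 38.2% in the resistant strain; of the 2 Osiris genes that passed in the resistant strain, Osi9 and Osi8, both were lower in larvae without overlap. The median stage change was 0.76 and 0.12 for the Tweedle genes that passed, and -1.22 and -0.78 for the Osiris genes, against -0.62 and -0.28 over all genes. Members that passed the filter through 1 stage alone had to differ, so these counts are no support for a family-wide difference. Without the filter 15 Tweedle and 7 Osiris genes were called in the sensitive strain, and 7 and 4 in the resistant strain. The Osiris genes among these were all lower in larvae, and the Tweedle genes went both ways. The share of all genes called without the filter is not given, so these counts are not read as a trait of the families.

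**Figure D5:**
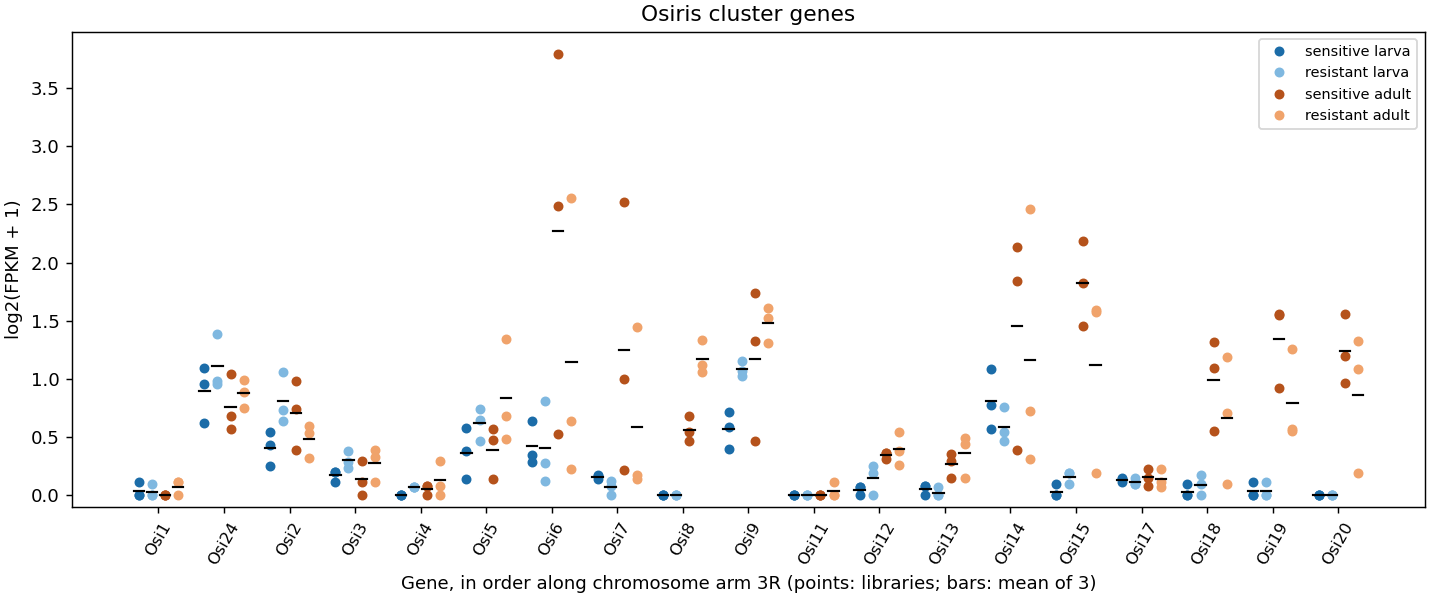
The 19 Osiris genes of the cluster in their order along 3R, as log2(FPKM + 1) on the vertical axis, with 1 point per library and a bar at the mean of 3. Osi6 to Osi8, Osi14, Osi15 and Osi18 to Osi20 have their highest points in adults, and Osi24 and Osi2 have larval and adult points at like heights.

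The rest of the Osiris genes stayed low at both stages. Osi24 ranged from 0.48 to 1.62 FPKM over the 12 libraries, Osi2 from 0.19 to 1.09 FPKM and Osi5 from 0.10 to 1.54 FPKM. Osi1, Osi3, Osi4, Osi12, Osi13, Osi17 and Osi22 never reached 0.50 FPKM. Among Tweedle genes TwdlV ranged from 0.24 to 0.73 FPKM with no stage or strain apart from the others, TwdlQ was at 0 in all larvae and at most 0.50 FPKM in adults, and TwdlJ did not exceed 0.11 FPKM. TwdlW and TwdlC reached 1.22 and 1.35 FPKM, both in sensitive adults replicate 1.

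Whether the strain effect itself differs between stages was tested over all 12 libraries. Of 13 Tweedle genes tested, 6 had a strain effect that was lower in larvae than in adults and none one that was higher (limma; 3 at an unadjusted p under 0.05); of 10 Osiris genes, Osi8 alone was called, also lower. TwdlS and Osi8 entered this test through the 3 resistant adult libraries alone, where they are high, so they had to differ and their calls are no support. Over 12270 genes 29.7% were called, 9.98% lower and 19.7% higher. TwdlX had the largest difference, -2.84 (SE 0.53, adjusted p = 0.00244), followed by TwdlS at -2.04 (SE 0.20, adjusted p = 1.956e-05), TwdlP at -2.02 (SE 0.65, adjusted p = 0.0378) and Twdlbeta at -1.41 (SE 0.37, adjusted p = 0.0131, limma). TwdlX and Twdlbeta were called with any 1 of the 12 libraries left out, and TwdlP in 5 of 12 such fits. The calls of TwdlT and Osi8 ended after scaling (adjusted p = 0.0727 and 0.0659, limma). For TwdlX and Twdlbeta the strains were apart in larvae and overlapped in adults, and for TwdlS they were apart in adults and near 0 in larvae. TwdlX was at 0.19 to 0.56 FPKM in adults, where the log2 scale leaves room for only a small change. Its difference therefore mostly repeats the larval strain effect.

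Of genes that surround the members, 1 uncharacterised gene inside the Osiris cluster is given for its level. CG15597, which is not an Osiris gene and was chosen after its values were seen, was at 136.04, 137.92 and 180.46 FPKM in sensitive larvae and at 4.67, 4.67 and 52.94 FPKM in resistant larvae. Resistant larvae replicate 3 again lay between the other resistant libraries and the sensitive ones. The change was -3.65 (SE 1.03, adjusted p = 0.0367), and in adults, where it was at 0.13 to 0.64 FPKM in sensitive and 1.23 to 4.10 FPKM in resistant libraries, it was 1.26 (SE 0.29, adjusted p = 0.0168, limma).

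Other genes of cuticle formation were counted from lists by role. In larvae 48.8% of all genes were called higher and 9.84% lower before scaling, and shares after scaling are not given. Of 16 ecdysone response genes tested in larvae, 15 were higher and 1 lower in the resistant strain, with a median change of 1.15 against 0.49 over all genes; after scaling 8 were higher and 1 lower. ImpE2, induced by ecdysone in imaginal discs, was at 58.8 ± 14.8 FPKM in sensitive and 245 ± 42.7 FPKM in resistant larvae (SD, n = 3). Of 9 pupal and prepupal cuticle genes, 6 were lower and 2 higher, and after scaling 6 and 1. Ccp84Ad, a cuticle protein gene, was at 3.09, 4.77 and 5.65 FPKM in sensitive larvae and at 0.13, 0.12 and 1.02 FPKM in resistant larvae, the highest of these in replicate 3, as for TwdlX and TwdlP. Pcp, the list gene at the highest larval level, went the other way. It was at 343 ± 82.4 FPKM in sensitive and 944 ± 122 FPKM in resistant larvae (SD, n = 3). Its change was 1.48 (adjusted p = 0.000858, limma), and the call held after scaling. The list thus summed to 338.57 to 476.06 FPKM in sensitive and 866.51 to 1104.16 FPKM in resistant larvae. Acp1, among the 6 lower genes, had its highest levels in adults.

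Of 19 genes of chitin and the apical matrix, 8 were higher and 1 lower in resistant larvae, but 7 and 6 after scaling. The counts before scaling do not stand above the 48.8% and 9.84% of all genes. The 1 lower gene, obst-E, which encodes a chitin-binding protein of larval cuticle, was at 352 ± 60.3 FPKM in sensitive and 60.8 ± 8.63 FPKM in resistant larvae. Of 8 tanning and pigment genes, 3 were higher, also not above the share of all genes, and after scaling 2 were higher and 1 lower.

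In adults 10 of 15 genes of chitin and the apical matrix were called higher in the resistant strain, where 15.9% of all genes were called higher. The median change was 1.47 against 0.02 over all genes. After scaling 8 were called higher, and the share of all genes after scaling is not given. Serp, a chitin deacetylase gene, was at 60.17, 16.17 and 17.71 FPKM in sensitive and at 119.09, 81.65 and 215.60 FPKM in resistant adults. Sensitive adults replicate 1 was the highest of its strain for serp, as for Osi6 and TwdlM, and resistant adults replicate 3 the highest of all, as for TwdlT. Of 8 pupal and prepupal cuticle genes 3 were higher, also after scaling. Of 9 tanning genes 3 were higher, and 2 after scaling, and of 15 ecdysone genes 2 were higher, near the share of all genes, and 1 after scaling. The 4 tracheal markers, of which serp and verm are also in the chitin list, summed to 45.74 to 162.31 FPKM in sensitive and 242.81 to 569.88 FPKM in resistant adults, and the 4 epidermal markers to 11.11 to 27.65 and 26.20 to 46.12 FPKM. Of the tracheal markers serp and verm were called higher, vvl was not (0.19, adjusted p = 0.836, limma), and trh, at 0.73 ± 0.38 and 0.82 ± 0.17 FPKM (SD, n = 3), did not pass the filter. Of the epidermal markers kkv alone was called higher, and shg read lower, at 6.30 ± 3.01 and 4.74 ± 0.34 FPKM (SD, n = 3), without a call. None of these markers was at 0 throughout a group, and their part in the Tweedle and Osiris values was not tested.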

How the data were processed

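Per the labels' protocols, total RNA of whole bodies was isolated by a TRIzol method and made into BGISEQ-500 libraries. The deposited FPKM values came as 1 table with 12 libraries as columns. Tools listed in the submitters' processing notes are RSEM 1.3.3, STAR, edgeR 3.12 and FastQC 0.11.9, with the build dm6; settings and roles are not given. Groups came from the labels. Positions came from an Ensembl annotation with dm6 coordinates, which matched 13777 of 14001 identifiers; 256 genes have values identical to another gene's, TwdlZ among them, at about 1 read. Members, lists and named genes were chosen with earlier results of these data known.

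Genes at 1 FPKM or more in at least 3 libraries of a fit were tested with limma 3.58.1 (trend, robust) in R 4.3.3 on log2(FPKM + 1), two-sided, with Benjamini-Hochberg adjustment over all genes tested and a threshold of 0.05. Each strain effect used its stage's 6 libraries, each stage effect its strain's 6, and the difference of strain effects all 12. No scaling was added to the FPKM; steps were tested on simulated data. Given in full were members at a mean of 10 FPKM in some group or called between strains with groups that do not overlap; others are named as chosen later, or by range. From each list at most 4 called genes with the largest changes could be named, and part of them are.

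Reads were estimated from genes with 1 transcript of 500 to 3000 bases, where 91.1 to 95.5% of low values per library, over 416 to 619 genes, were within 0.2 of a whole read and 40% would be by chance. They give counting precision only. Alternatives were median-of-ratios and upper-quartile scaling, a pseudocount of 0.1, no filter, a mean of at least 5 FPKM, a replicate block, 1 fit of all 12 libraries, a threshold of 0.01 and each library left out. Python 3.11.15 with matplotlib 3.10.9 drew the plots.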

Additional observations from a re-analysis of the deposited data

Results flagged for a closer look

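For 7 members the strain effect differed between larvae and adults in the test of the difference itself (larval minus adult strain effect, log2 scale, limma). The values were -2.84 for TwdlX, -2.04 for TwdlS, -2.02 for TwdlP, -1.41 for Twdlbeta, -1.14 for Twdlalpha, -1.12 for TwdlT and -0.61 for Osi8. TwdlX, Twdlbeta and TwdlP were lower in resistant than in sensitive larvae, and TwdlS, Twdlalpha, TwdlT and Osi8 higher in resistant than in sensitive adults. TwdlT, at low levels, was also higher in resistant than in sensitive larvae. TwdlX was near 0 in every adult library, so its difference mostly repeats its larval strain effect. With each library left out in turn, the call was kept in 12 of 12 fits for TwdlX and for Twdlbeta, in 6 of 12 for Twdlalpha, in 5 of 12 for TwdlP and in 1 of 12 for TwdlT. TwdlS and Osi8 passed the filter through the resistant adults alone, so they had to differ, and none of those 3 libraries could be left out; with one of the other 9 left out the call was kept in 9 fits for TwdlS and in 4 for Osi8. After median-of-ratios scaling the calls of TwdlT and Osi8 ended (adjusted p = 0.0727 and 0.0659).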

How the results depend on the processing

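Counts of calls are for larvae, adults and the difference of strain effects unless a stage effect is named. At 6484, 2309 and 3640 genes in all as reported, a threshold of 0.01 gave 4138, 600 and 1318, left 0 Osiris genes in all 3 and 2 Tweedle genes in the difference. Median-of-ratios scaling gave 3342 genes in larvae and 0 Osiris genes in all 3, and upper-quartile scaling 0 Osiris genes in larvae. A pseudocount of 0.1 left 0 Osiris genes in the difference. With no filter there were 2 Osiris genes in larvae, 5 Tweedle genes in adults, 15 Tweedle and 7 Osiris genes by stage in the sensitive strain and 4 Osiris genes by stage in the resistant strain. Shares over all genes with no filter are not given. At a mean of at least 5 FPKM, which leaves few members to test, there were 2, 0 and 1 Tweedle genes and 0 Osiris genes, and by stage 1 Tweedle gene in the sensitive strain, 0 in the resistant strain and 0 Osiris genes in both. In 1 fit of all 12 libraries there were 0 Osiris genes in larvae, 5 Tweedle genes in adults, and by stage 6 and 4 Osiris genes in the sensitive and resistant strain.

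Same-numbered libraries of the strains had correlations of deviations of -0.20 to 0.20, and differently numbered ones of -0.25 to 0.37. With 3 libraries a group these values cannot decide whether the numbers pair the samples. The replicate block gave 5 Tweedle and 4 Osiris genes in adults and 4 Tweedle and 1 Osiris gene in larvae. With 1 library left out, larvae gave 4958 to 6126 genes, 3 to 4 Tweedle and 0 to 1 Osiris; adults 497 to 2282, 1 to 5 and 0; the difference 2117 to 4730, 2 to 6 and 0 to 1. By stage the sensitive strain gave 6396 to 7685, 5 to 7 and 0 to 1, and the resistant strain 4201 to 6422, 3 to 5 and 0 to 1. Of 189 values of called members under the other settings 175 kept their call, 14 lost it and 0 reversed; of 186 with a library left out 143 kept it. The cause of the lost calls was not tested. Most members rest on under 100 reads a library, where a few reads move the value.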
